A study of Homo sapiens with 10 samples.

Results

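The subject was the genes of the cytosolic ribosomal proteins, which together with ribosomal RNA form the ribosome of the cytosol. Members were all probe sets whose platform annotation gave 1 gene symbol that begins RPL, for the large subunit, or RPS, for the small subunit, followed by a digit, or that is RPLP0, RPLP1, RPLP2 or RPSA. The RPS6K kinases (13 probe sets) and pseudogenes (3 probe sets) were left out. The rule found 96 probe sets of 58 genes, 36 with RPL and 22 with RPS symbols, among 22215 probe sets and 11963 genes with a single symbol. A further 59 probe sets carried several symbols, 1 of them of a ribosomal protein, and are not members, and RPL5, RPLP0, RPSA and RPS27A are not analysed here.

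RNA came from MDA-MB-435, an established human melanoma cell line, and was hybridised to 10 Affymetrix hgu133a arrays. The 5 groups of 2 arrays each were untreated cells, cells treated with hepatocyte growth factor (HGF) for 1, 6 and 24 h, and cells transduced with integrin beta 4 (ITGB4) and given no HGF. The study describes the 2 RNAs of a group as biological duplicates, all from this 1 line. A mock-transduced group is not among the samples, although the descriptions of the transduced cells hold the word Mock, so transduction and ITGB4 cannot be told apart.

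Each ribosome holds 1 copy of most of these proteins, and cells make them in matched amounts. Their messengers are among the most abundant in growing cells and are known for a 5′ terminal oligopyrimidine (TOP) tract, a C at the first base followed by a run of C and T. Through this tract, growth factor signalling by way of mTOR sets how strongly these messengers are translated. HGF acts through the receptor MET, and an array measures the amount of a messenger and not its translation.

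The start regions are shown because the tract is the feature that most members share and that the rule did not use. RefSeq promoter windows (GRCh38.p14) were matched for 50 of the 58 genes. Each line gives 20 bases before and 10 bases from the annotated start, 5′ to 3′ on the strand of the gene, and capitals mark the unbroken run of pyrimidines that begins at the start. The first 5 are RPS6, the small subunit protein phosphorylated by S6 kinases (chr9:19380227-19380256, minus strand), RPLP1, an acidic protein of the stalk (chr15:69452798-69452827, plus strand), RPL12, at the base of the stalk (chr9:127451397-127451426, minus strand), RPS21, of the small subunit (chr20:62387083-62387112, plus strand), and RPS27 (chr1:153990742-153990771, plus strand). RPL3, a protein near the peptidyl transferase centre (chr22:39319614-39319643, minus strand), has a shorter run, and RPL11, which can bind and inhibit MDM2 (chr1:23691759-23691788, plus strand), has none at the annotated start. The last 3 belong to proteins that are paralogs of a core ribosomal protein: RPS27L (chr15:63157468-63157497, minus strand), RPL26L1 (chr5:172958709-172958738, plus strand) and RPL36AL (chr14:49620617-49620646, minus strand).
RPS6: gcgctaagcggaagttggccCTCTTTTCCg
RPLP1: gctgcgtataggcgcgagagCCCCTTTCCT
RPL12: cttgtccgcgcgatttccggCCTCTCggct
RPS21: tgccgggtgactagctgcttCCTTTCTCTC
RPS27: gcaggatttccgctttcgctCCTTTCCggc
RPL3: gacccgtaaggccgaccggcCTCTaccggc
RPL11: gagcccgcctcctggcccataaggccctcg
RPS27L: cccggaagttgatgccgagcgcagatcgct
RPL26L1: caggcagtcttccaggggtcggcgaacgaa
RPL36AL: tccgcctgtttcttccctttCCTgttaggc

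A TOP-like start, here a C at the annotated start with at least 4 pyrimidines after it, was present in 33 of the 50 genes (66%). Among all 15843 protein-coding genes with a window the share was 4.6%. The median pyrimidine run from the start was 7 bases in the members and 0 in all genes. RPL3, RPL36AL, RPS7 and RPS15 began with C but had a run too short for this definition. Of the 5 paralogs with a window, 1 had a TOP-like start (20%), and RPS27L, RPL26L1, RPL36AL and RPL10L had none, against 32 of 45 core genes (71.1%). These are annotated starts and not starts measured in these cells.

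Motifs were searched on both strands from 250 bases before to 50 after the start. CCGGAAG, the core of many sites of ETS factors, was found in 36% of the member windows and 14.2% of all windows. AAGATGGC, a YY1-type motif, was found in 8% and 3.91%, and TATAAA in 8% and 9.63%. CACGTG, the E-box that MYC and MAX can bind, was in 2 of 50 member windows (4%, against 8.88% of all). In the windows of 38 ribosome biogenesis factors, the proteins that build ribosomes in the nucleolus, CACGTG was in 42.1% and a TOP-like start in 15.8%. In those of 45 mitochondrial ribosomal proteins, which belong to the separate ribosome of mitochondria, the shares were 6.67% and 6.67%, and CCGGAAG was in 40%. A match describes letters and not binding.

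**Figure D1:**
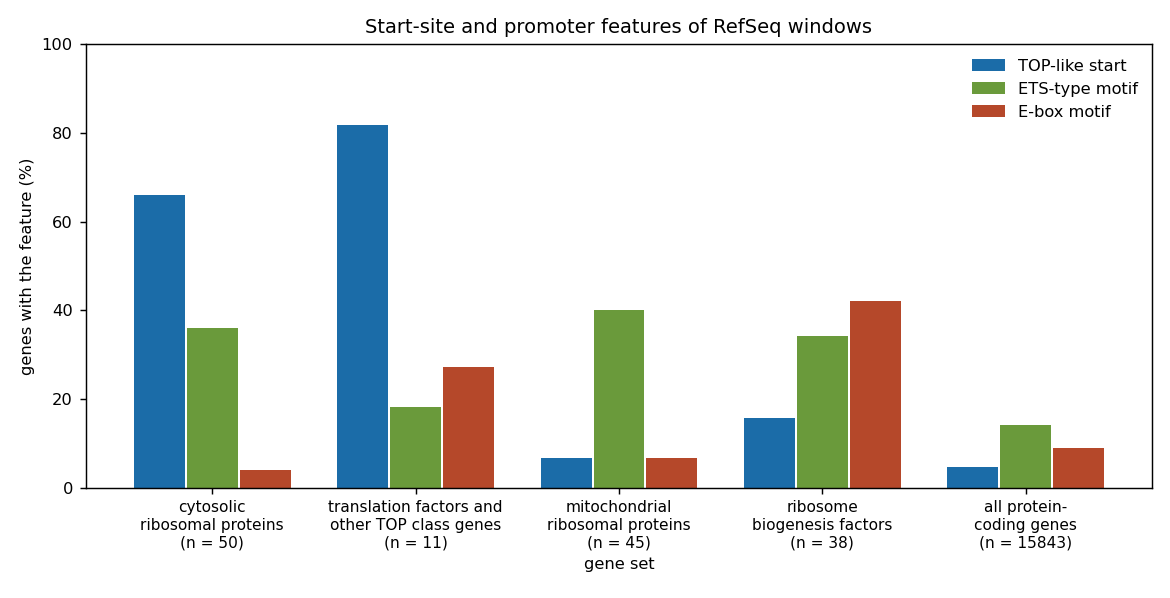
Share of genes (vertical axis, %) with a TOP-like start, the ETS-type motif CCGGAAG or the E-box CACGTG in 5 gene sets (horizontal axis, number of genes with a window in parentheses). The TOP-like start is in 66% of cytosolic ribosomal protein genes and 4.6% of all protein-coding genes, and the E-box is most frequent, at 42.1%, in the ribosome biogenesis factors.

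Every value is an RMA value as the authors made it, on a log2 scale, where a difference of 1 is a doubling. Over all arrays they ran from 2.19 to 14.28, with array medians of 6.81 to 6.88. The labelled cell type was checked with marker genes. All 7 melanocyte lineage markers with a single-symbol probe set, among them MLANA and TYR, passed the filter on low values, and DCT had no such probe set. Of 5 epithelial markers, KRT18 alone passed. In the transduced cells, ITGB4 itself was at 13.10 on its brightest probe set against 6.64 in untreated cells.

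A probe set was tested when its second-highest value over the 10 arrays was at least 7.3, which kept 10176 in all and 79 of the 96 members, of 54 genes. The mean over the 10 arrays had a median of 12.8 in the 96 members and 6.85 in all probe sets. Of the 328 probe sets in the whole series with a mean of 12 or more, 61 were members. Values of different probe sets are not compared in amount, since each has its own affinity, so what follows says where a level lies on the scale of the arrays and not which messenger is the more abundant.

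Most members with a mean of 12 or more had arrays close together. RPL41, a very short protein of the large subunit, had values between 13.89 and 14.21, and RPS15, of the small subunit, between 13.83 and 13.97. The highest value of any probe set on an array was 14.21 to 14.28. The members thus lie near the top of the scale, and whether the arrays compress differences there was not tested.

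The 17 member probe sets below the filter had means from 4.10 to 7.12. The nearest on either side were RPL18 222297_x_at, kept with a second-highest value of 7.31, and RPL31 221593_s_at, left out with 7.28. Of the 17, RPLP2, a stalk protein, accounts for 2 probe sets, with values of 4.85 to 6.02, and the paralogs RPL3L, known from muscle, and RPL10L, known from testis, for 1 each, with 4.82 to 5.53 and 5.85 to 6.33. RPLP2, RPL3L and RPL10L have no other probe set and are 3 of the 4 genes with none kept. In 8 genes 1 probe set was kept and another was not. RPS14, of the small subunit, lay between 13.19 and 13.35 on 208645_s_at, but between 5.17 and 6.61 on its other 2 probe sets, and RPS6 lay between 6.21 and 6.57 on 211690_at and between 13.21 and 13.67 on its other 3. A low value on such a probe set therefore does not stand for a low messenger.

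**Figure D2:**
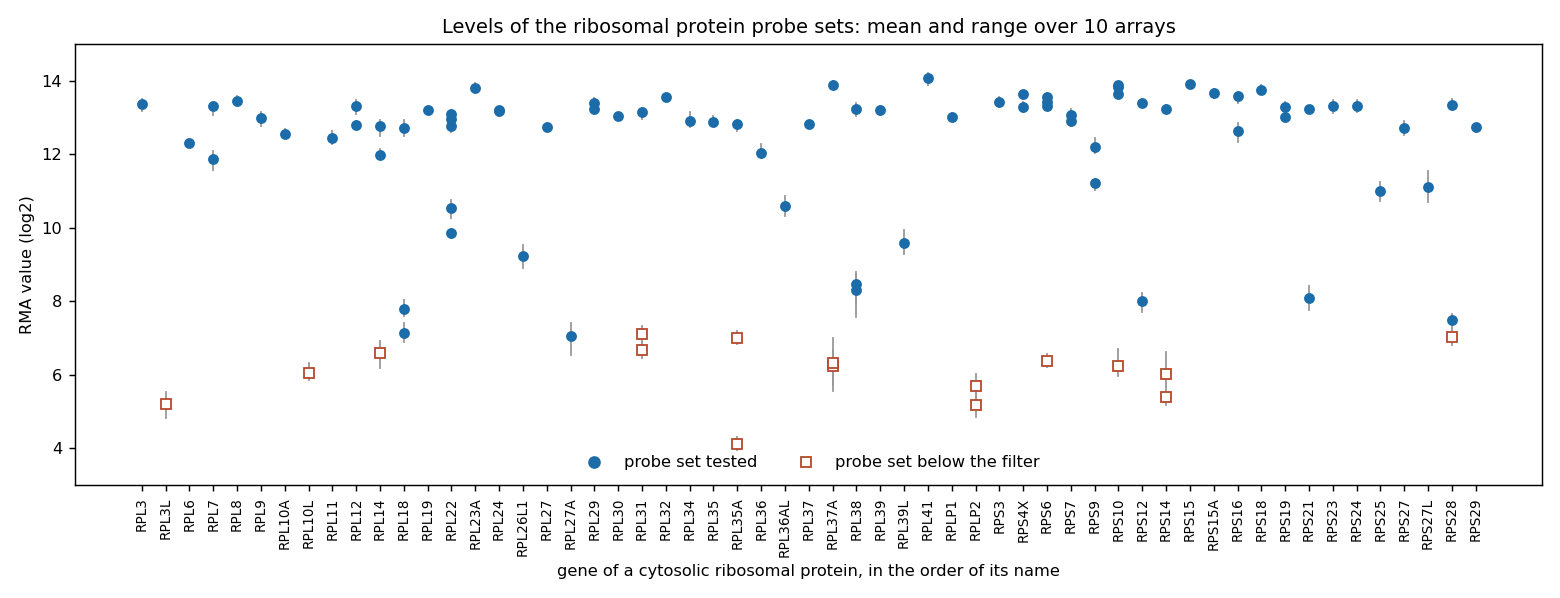
RMA value (log2, vertical axis) of each ribosomal protein probe set, by gene (horizontal axis), as the mean (symbol) and range (line) over the 10 arrays. Filled circles are the probe sets tested and open squares those below the filter of 7.3; 61 probe sets lie at 12 or more, and levels of different probe sets cannot be compared in amount.

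The question in every comparison was whether HGF or ITGB4 changed the amount of these messengers. In none of 7 comparisons did a member pass limma at a Benjamini-Hochberg adjusted p under 0.05. Against untreated cells, 0 of 79 were called after HGF for 1 h, where 5.67% of all tested probe sets were called (0.58% higher and 5.09% lower), and 0 after 6 h, where 6.21% were. The count was 0 after 24 h, where 0% of all were called, and 0 in ITGB4 cells, where 0.0491% were. Between HGF time points it was 0 from 1 to 6 h against 18.3% of all (11.9% higher and 6.4% lower), 0 from 6 to 24 h against 19.5%, and 0 from 1 to 24 h against 0.00983%. Without adjustment, limma gave a p under 0.05 to 4, 2, 1 and 0 of the 79 after 1, 6 and 24 h and in ITGB4 cells, where 26.5%, 23.2%, 11.1% and 6.07% of all probe sets had one. From 1 to 6 h, 6 to 24 h and 1 to 24 h there were 4, 3 and 1, where 35.2%, 34% and 14.7% of all had one. The lowest adjusted p of a member in limma was 0.0756, for RPS27L from 1 to 6 h. These tests use a prior with a common spread for all tested probe sets. With a trended and robust prior some members were called, as given below.

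Few calls were also found among other probe sets near the top of the scale. Of 267 probe sets that are not members and had a mean of 12 or more, limma called 1 at 1 h, 2 at 6 h (1 higher and 1 lower), and 0 at 24 h and in ITGB4 cells. An unadjusted p under 0.05 was given to 6.37%, 7.87%, 1.87% and 1.5% of them, beside 5.06%, 2.53%, 1.27% and 0% of the 79 members. Among the 61 members with a mean of 12 or more the shares were 1.64%, 0%, 0% and 0%. Low counts of calls against untreated cells were thus also found in other probe sets of like level. From 1 to 6 h 8 of the 267 were called higher and 7 lower, and from 6 to 24 h 5 and 8, and whether the members differ from them was not tested.

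The differences were small as well as not called. Of the 553 differences of members over the 7 comparisons, 174 were over 0.1 in absolute size and 13 over 0.3, and the largest was 0.45. The 95% interval of the difference lay inside a change of 2-fold for 79 of 79 members in each comparison. It lay inside 1.5-fold for 72 of 79 after HGF for 1 h (91.1%, against 61.9% of all tested probe sets), 76 after 6 h (96.2% against 62.6%), 75 after 24 h (94.9% against 73.8%) and 76 in ITGB4 cells (96.2% against 80.7%). Between time points the counts were 77 from 1 to 6 h and 76 in each of the others, against 54.0% to 72.2% of all. Among the 267 other probe sets with a mean of 12 or more the shares were 93.6%, 94.0%, 95.1% and 96.6% against untreated cells. Between time points their shares were 86.1% from 1 to 6 h, 86.1% from 6 to 24 h and 95.9% from 1 to 24 h. Those of the members were 97.5%, 96.2% and 96.2%. The 79 members include 18 with a mean under 12, and whether the 2 sets differ was not tested. For 2 to 7 members per comparison the interval reached past 1.5-fold.

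The arrays of a group also agreed more closely for the members. The median SD within groups was 0.080 in the 79 members and 0.144 in all tested probe sets, and the median SD of the 5 group means was 0.071 and 0.170. Among probe sets with a mean of 12 or more, the same medians were 0.070 in 61 members and 0.083 in all 328 for the SD within groups, and 0.060 and 0.082 for the SD of the group means. The 328 include the members. Over the 10 arrays the range of a member ran from 0.12 for RPS10 200095_x_at to 1.17 for RPL38 202028_s_at, with a median of 0.29.

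**Figure D3:**
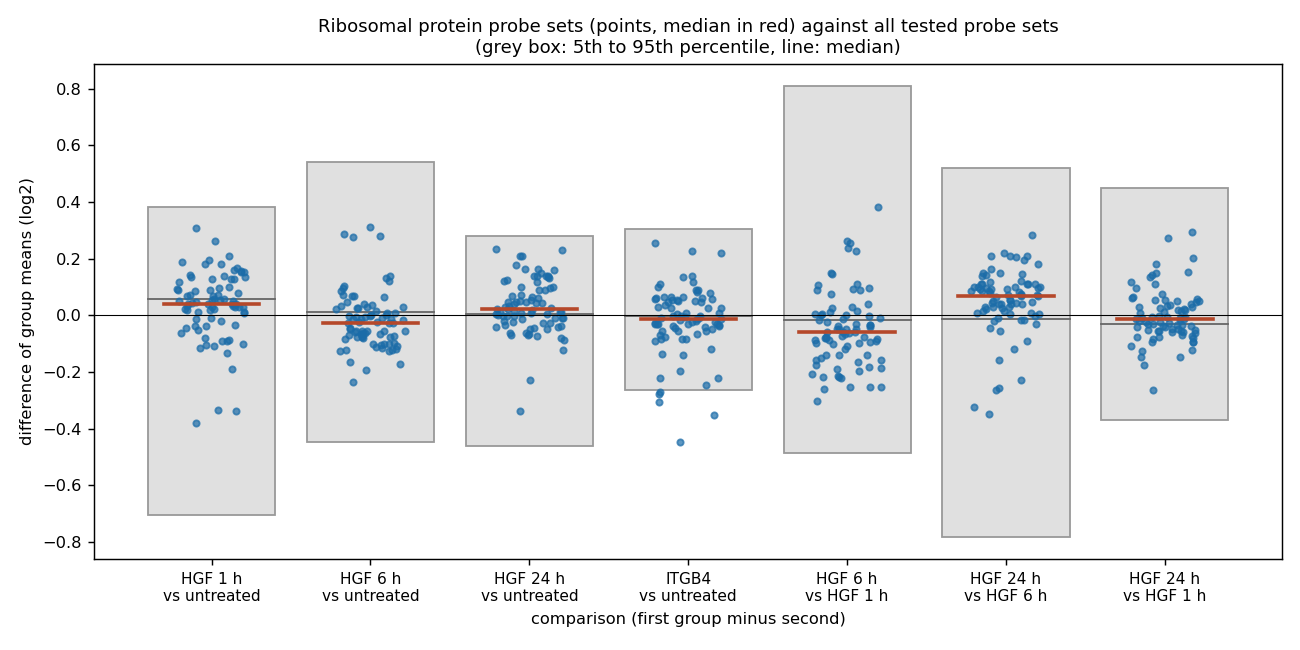
Difference of group means (log2, vertical axis) for each of the 79 ribosomal protein probe sets (points, median as a red line) in the 7 comparisons (horizontal axis). Grey boxes span the 5th to 95th percentile of all 10176 tested probe sets with a line at their median; member medians lie between -0.06 and 0.07.

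After HGF for 1 h the median difference of the members was 0.04, and that of all tested probe sets 0.06. It was 0.06 in the 32 RPS probe sets and 0.03 in the 43 RPL probe sets, the 4 paralogs counted apart. In 24 members both HGF arrays lay above both untreated arrays and in 11 below, which is 35 of 79 without overlap. Of all tested probe sets 59.9% had none, and of the 267 other probe sets with a mean of 12 or more 46.8%. Under cyclic loess scaling the members' median was -0.01.

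RPL7, a large subunit protein, had its lowest values at 1 h on both probe sets. On 200717_x_at it was 13.43 and 13.42 in untreated cells, 13.11 and 13.06 at 1 h, 13.29 and 13.34 at 6 h, 13.42 and 13.30 at 24 h, and 13.41 and 13.27 in ITGB4 cells. The 1 h arrays lay below the other 8. The difference at 1 h was -0.34 (SE 0.11, n = 2 against 2, limma adjusted p = 0.0975). With a trended and robust prior the limma adjusted p was 0.0250, a call that the main analysis did not make. On 212042_x_at the values were 12.07 and 11.87 in untreated cells and 11.71 and 11.57 at 1 h, a difference of -0.34 (SE 0.14, limma adjusted p = 0.154).

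RPS27L, a paralog of RPS27 that is known as a target of p53, was at 11.25 and 11.15 in untreated cells, 10.70 and 10.93 at 1 h, 11.20 and 11.20 at 6 h, 11.08 and 10.85 at 24 h and 11.53 and 11.32 in ITGB4 cells. Both 1 h arrays were below both untreated arrays, with a difference of -0.38 (SE 0.14, limma adjusted p = 0.117). The 6 h arrays lay within the untreated range. Its core counterpart RPS27, with 12.80 and 12.61 in untreated cells and 12.78 and 12.56 at 1 h, overlapped.

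The largest positive difference at 1 h was that of RPS21 on 214097_at. It was at 8.04 and 7.97 in untreated cells, 8.23 and 8.40 at 1 h, 8.27 and 8.36 at 6 h, 7.90 and 8.21 at 24 h and 7.75 and 7.77 in ITGB4 cells. The difference was 0.31 (SE 0.13) at 1 h and 0.31 (SE 0.13) at 6 h, with limma adjusted p of 0.171 and 0.191. The second probe set of the gene, 200834_s_at, stayed between 13.18 and 13.32 on all arrays, with a difference of 0.02 at 1 h and -0.05 at 6 h. The probe sets of RPS21 thus disagreed. The next positive differences at 1 h were 0.26 for RPL18 on 222297_x_at and 0.21 for RPL27A, both large subunit proteins on probe sets whose mean was below 7.3. RPL18 reached 7.3 only on HGF arrays of 1 h and 24 h (7.41 and 7.31), and so did RPL27A (7.37 and 7.39). The filter thus kept them through groups in which they were high, so these differences are no support for a rise.

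**Figure D4:**
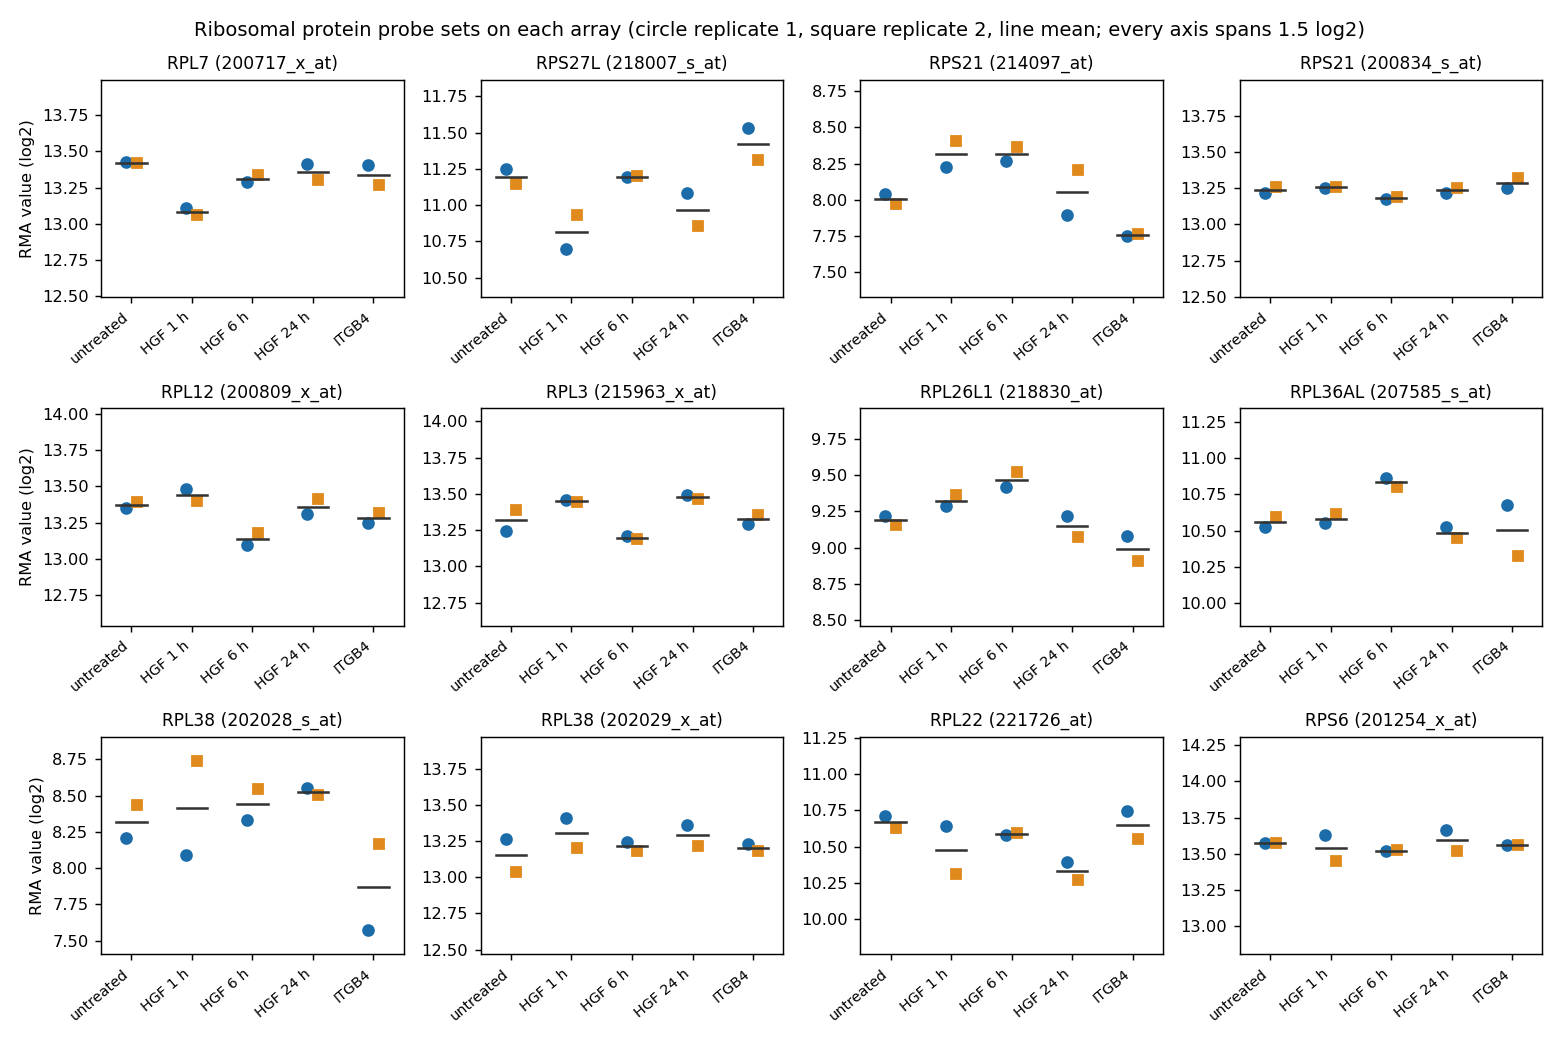
RMA value (log2, vertical axis) of 12 ribosomal protein probe sets on each array, by group (horizontal axis), with circles for replicate 1, squares for replicate 2 and a line for the mean; every panel spans 1.5. RPL7 200717_x_at is lowest at 1 h, RPL12 and RPL3 are lowest at 6 h, and the probe sets within RPS21 and within RPL38 differ in pattern.

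After HGF for 6 h the median difference of the members was -0.03 and that of all tested probe sets 0.01. It was -0.01 in the RPS and -0.06 in the RPL probe sets. In 11 members both HGF arrays were above and in 18 below the untreated arrays, which is 29 of 79 without overlap. Of all tested probe sets 60.4% did not overlap, and of the 267 other probe sets with a mean of 12 or more 48.3%. RPL12 on 200809_x_at was at 13.35 and 13.39 in untreated cells, 13.48 and 13.40 at 1 h, 13.10 and 13.18 at 6 h, 13.31 and 13.41 at 24 h and 13.25 and 13.32 in ITGB4 cells. The 6 h arrays were the lowest of the 10, with a difference from untreated cells of -0.23 (SE 0.11, limma adjusted p = 0.240). RPL29, a large subunit protein, and RPS19, a small subunit protein mutated in Diamond-Blackfan anaemia, followed with -0.19 on 213969_x_at and -0.17 on 213414_s_at.

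The largest positive differences at 6 h other than that of RPS21 were in RPL38 on 221943_x_at (0.29) and in the paralogs RPL26L1 and RPL36AL. RPL26L1, a paralog of RPL26, was at 9.22 and 9.16 in untreated cells, 9.29 and 9.36 at 1 h, 9.42 and 9.52 at 6 h, 9.22 and 9.07 at 24 h and 9.08 and 8.91 in ITGB4 cells. Its 6 h arrays were the highest of the 10, with a difference of 0.28 (SE 0.12, limma adjusted p = 0.190). RPL36AL, a paralog of RPL36A, was at 10.53 and 10.59 in untreated cells, 10.55 and 10.61 at 1 h, 10.87 and 10.80 at 6 h, 10.53 and 10.45 at 24 h and 10.68 and 10.32 in ITGB4 cells. Here too the 6 h arrays were the highest of the 10, with a difference of 0.28 (SE 0.13, limma adjusted p = 0.247). The start windows of both paralogs hold no TOP-like start. That of RPS27L, which had -0.00049 at 6 h, holds none either, while RPS21 and RPL38 have one. Whether the start bears on these differences was not tested.

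After HGF for 24 h the median difference of the members was 0.02, and that of all tested probe sets 0.0031. In 15 members both arrays were above and in 6 below the untreated arrays, 21 of 79 without overlap. Of all tested probe sets 46% did not overlap, and of the 267 other probe sets with a mean of 12 or more 38.6%. The largest difference of a member was that of RPL22, a large subunit protein that also binds small viral RNAs, on 221726_at. It was at 10.71 and 10.63 in untreated cells, 10.64 and 10.31 at 1 h, 10.58 and 10.59 at 6 h, 10.39 and 10.27 at 24 h and 10.75 and 10.55 in ITGB4 cells. The 24 h arrays were below the untreated ones, with a difference of -0.34 (SE 0.14, limma adjusted p = 0.410). Of the other 4 probe sets of RPL22, 214042_s_at had -0.12 and the remaining 3 had 0.05, 0.0028 and 0.09. RPS27L had -0.23, and the largest positive differences were 0.23 for RPL38 221943_x_at, 0.23 for RPL27A and 0.21 for RPL18 222297_x_at. The probe sets of RPL27A and RPL18 passed the filter only through HGF arrays of 1 h and 24 h, so their differences are no support for a rise.

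In ITGB4 cells the median difference of the members was -0.01, and that of all tested probe sets -0.00093. In 16 members both arrays were above and in 19 below the untreated arrays, 35 of 79 without overlap. Of all tested probe sets 34.6% did not overlap, and of the 267 other probe sets with a mean of 12 or more 40.8%. RPL38, a large subunit protein known for its part in the translation of Hox messengers in the embryo, was at 8.20 and 8.43 in untreated cells on 202028_s_at and at 7.57 and 8.17 in ITGB4 cells. The difference of -0.45 (SE 0.23, limma adjusted p = 0.878) was the largest of any member in any comparison and rests mostly on ITGB4 replicate 1. On 221943_x_at the values were 8.36 and 8.47 against 7.91 and 8.22, a difference of -0.35. On 202029_x_at, at 13.27 and 13.03 against 13.23 and 13.18, the groups overlapped, so the probe sets of RPL38 disagreed.

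RPS10, of the small subunit, had the largest positive difference in ITGB4 cells. On 200817_x_at it was at 13.53 and 13.53 in untreated cells and 13.82 and 13.75 in ITGB4 cells, a difference of 0.25 (SE 0.12, limma adjusted p = 0.832). Its other 2 kept probe sets had 0.09 and 0.08, and in both the ITGB4 arrays lay above the untreated ones. RPL36, with 11.89 and 11.97 against 12.01 and 12.29, differed by 0.22, and RPS27L by 0.23. RPL39L, a paralog of RPL39 best known from testis, was at 9.58 and 9.61 in untreated cells and 9.36 and 9.28 in ITGB4 cells, a difference of -0.28 (SE 0.13, limma adjusted p = 0.851). After HGF the differences of RPL39L from untreated cells were 0.20 at 1 h, -0.06 at 6 h and 0.05 at 24 h, none of them called.

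From HGF 1 to 6 h the median difference of the members was -0.06 and that of all tested probe sets -0.02. It was -0.06 in the RPS and -0.06 in the RPL probe sets, and the 4 paralogs had a median of 0.20. Of the 79 members, 23 had a positive difference, and the groups did not overlap in 34 (8 higher and 26 lower), against 66.5% of all. Of the 267 other probe sets with a mean of 12 or more, 108 were positive, 60 lay without overlap higher and 100 lower, and the median was -0.03. The lowest adjusted p values were 0.0756 for RPS27L, which was 0.38 higher at 6 h (SE 0.14), and 0.0819 for RPL12 on 200809_x_at, which had -0.30 (SE 0.11), both from limma. The second probe set of RPL12 had -0.16 with all 6 h arrays below the 1 h arrays. RPL3 had -0.25 (SE 0.11, limma adjusted p = 0.131) and RPS19 on 213414_s_at -0.25 (SE 0.11, limma adjusted p = 0.140). With the trended and robust prior, RPL12, RPL3 and RPS19 were called lower at 6 h (limma adjusted p of 0.0141, 0.0266 and 0.0344) and RPL7 200717_x_at higher (0.0493). Further differences were 0.26 for RPL7 212042_x_at, 0.25 for RPL36AL and -0.26 for RPL39L.

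From HGF 6 to 24 h the member median was 0.07 and that of all tested probe sets -0.01. This comparison shares the 6 h arrays with that from 1 to 6 h and is no independent view of it. Of the 79, 63 were positive, and the groups did not overlap in 35 (28 higher and 7 lower), against 64% of all (30.2% higher and 33.8% lower). The 267 other probe sets with a mean of 12 or more leaned the same way, with 161 positive, 99 without overlap higher and 63 lower, and a median of 0.04. RPL3 was at 13.25 and 13.39 in untreated cells, 13.46 and 13.44 at 1 h, 13.21 and 13.19 at 6 h, 13.49 and 13.47 at 24 h and 13.29 and 13.36 in ITGB4 cells. It had a difference of 0.28 from 6 to 24 h (SE 0.11, limma adjusted p = 0.0978), RPL12 200809_x_at one of 0.22 and RPS9 217747_s_at one of 0.21. With the trended and robust prior, limma called RPL3 (adjusted p = 0.0149) and RPL12 (adjusted p = 0.0455). The paralogs RPL36AL and RPL26L1 went the other way, at -0.35 (SE 0.13) and -0.32 (SE 0.12), with limma adjusted p of 0.0903 and 0.0832, and RPS21 214097_at had -0.27. With either ITGB4 array left out, the limma adjusted p of RPL36AL was 0.0488.

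From HGF 1 to 24 h the member median was -0.02 and that of all tested probe sets -0.03. The groups did not overlap in 20 of 79 (7 higher and 13 lower), against 39.1% of all. The largest differences were 0.29 and 0.27 for the 2 probe sets of RPL7, 0.20 for RPL11, -0.26 for RPS21 214097_at, -0.17 for RPL26L1 and -0.15 for RPL22 221726_at. None had a limma adjusted p under 0.303.

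RPS6 and the stalk and MDM2-binding members were followed in each group. RPS6 on 201254_x_at was at 13.58 and 13.58 in untreated cells, 13.63 and 13.45 at 1 h, 13.52 and 13.52 at 6 h, 13.67 and 13.52 at 24 h and 13.56 and 13.56 in ITGB4 cells. Over its 3 kept probe sets and the 4 comparisons with untreated cells, its differences ran from -0.05 to 0.07. RPLP1 was at 12.93 and 12.92 in untreated cells, 13.11 and 13.00 at 1 h, 12.97 and 12.94 at 6 h, 13.10 and 13.03 at 24 h and 13.01 and 13.01 in ITGB4 cells, each pair slightly above the untreated one. RPL11 was at 12.43 and 12.47 in untreated cells, 12.35 and 12.35 at 1 h, 12.46 and 12.42 at 6 h, 12.64 and 12.47 at 24 h and 12.54 and 12.29 in ITGB4 cells. The groups of RPL11 overlapped with untreated cells except at 1 h, where both arrays were lower (difference -0.10, limma adjusted p = 0.615).

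In 18 genes with 2 or more kept probe sets, the sign of the difference was shared by all of them in 15 genes after 1 h, 10 after 6 h, 11 after 24 h and 8 in ITGB4 cells. Many of these probe sets can bind related transcripts. Of the 79 kept members, 33 have the suffix _s_at and 29 the suffix _x_at, and ribosomal protein genes are known for numerous processed pseudogenes, so values of single genes are uncertain to that extent. Among the 17 kept members with neither suffix the median difference was 0.09 at 1 h.

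The amounts of the machinery around the ribosome were set beside the members. Of 46 kept probe sets of ribosome biogenesis factors, 21 rose and 0 fell after HGF for 6 h (3.88% and 2.33% of all), with a median of 0.54, while the cytosolic ribosomal proteins had 0 called and a median of -0.03 in the same arrays. NOP16, a nucleolar factor for assembly of the large subunit, was higher by 1.12 (SE 0.20, limma adjusted p = 0.0123). NOP2, a ribosomal RNA methyltransferase, was higher by 1.04 (SE 0.15, limma adjusted p = 0.00639). With an untreated or an HGF 6 h array left out, a group held 1 array and fewer of the 46 were called, with medians of 0.49 to 0.60. From 6 to 24 h, 30 of the 46 fell and 0 rose (12.5% and 6.95% of all), with a median of -0.62.

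Of 52 kept probe sets of mitochondrial ribosomal proteins, 3 rose and 0 fell after 6 h (median 0.16), where 3.88% of all rose, and 10 fell and 0 rose from 6 to 24 h (median -0.22), where 12.5% of all fell. Those that rose were MRPS17 and both probe sets of MRPS12. With an untreated or a 6 h array left out, fewer were called at 6 h. The count from 6 to 24 h also varied when a 6 or 24 h array was left out. The ribosomal protein FAU, whose symbol lies outside the rule, had 0.21 at 1 h and was not called.

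**Figure D5:**
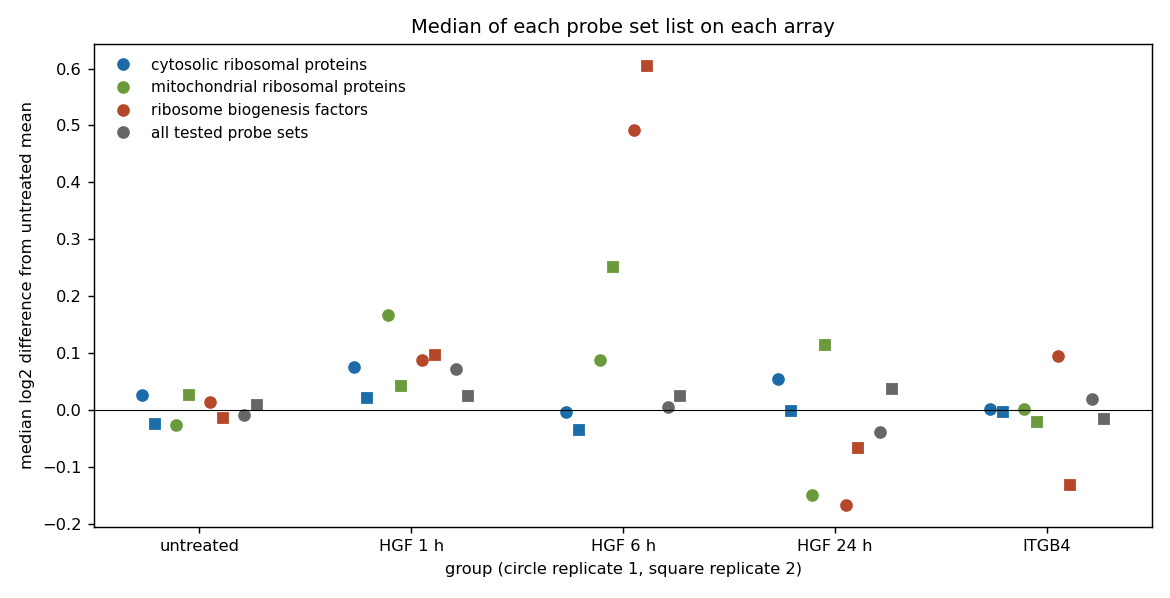
Median difference of each list from the mean of the untreated arrays (log2, vertical axis) on single arrays, by group (horizontal axis; circle replicate 1, square replicate 2), for cytosolic and mitochondrial ribosomal proteins, ribosome biogenesis factors and all tested probe sets. The biogenesis medians of the HGF 6 h arrays are 0.49 and 0.60, while the cytosolic ribosomal proteins stay between -0.03 and 0.07 on all arrays.

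On each array the median difference of the 79 members from the untreated mean lay between -0.03 and 0.07. It was 0.07 and 0.02 on the 1 h arrays, -0.0037 and -0.03 at 6 h, 0.05 and -0.0027 at 24 h and 0.00090 and -0.0038 in ITGB4 cells. The untreated arrays lay at 0.03 and -0.03. The RNA of whole cultures was measured, so fewer cells of a kind and less RNA per cell cannot be told apart, and RMA gives all arrays 1 distribution, so a change of all messengers together would not appear.

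Translation factors and other genes of the TOP class, among them NPM1, had 34 kept probe sets, of which 0 were called in any comparison with untreated cells. From 1 to 6 h, 3 rose and 1 fell, where 11.9% of all tested probe sets rose and 6.4% fell, so the list held no larger share of calls than all probe sets. NPM1 was higher by 0.50 and 0.37, NAP1L1, a histone chaperone, by 0.49, and the initiation factor EIF4B had -0.35 (limma adjusted p of 0.0371, 0.0435, 0.0398 and 0.0495). All 4 calls were lost without any single array of the untreated, HGF 1 h or HGF 6 h groups, and that of EIF4B also without either 24 h array. Of 18 probe sets of mTOR, S6 kinases and TOP-binding proteins, DEPTOR, an inhibitor of mTOR, fell at 6 h (-1.39, SE 0.15, limma adjusted p = 0.00227) and kept its call with any array left out. From 1 to 6 h, 2 of these 18 rose and 2 fell, beside the same 11.9% and 6.4% of all. LARP1, which binds the TOP tract, and CNBP, which binds TOP messengers, were higher at 6 h, by 0.43 (limma adjusted p = 0.0327) and 0.63 (limma adjusted p = 0.0125). DEPTOR, at -1.07 (limma adjusted p = 0.00337), and EIF4EBP1, a repressor of cap-dependent translation that mTOR inhibits, at -0.45 (limma adjusted p = 0.0344), were lower. The calls of LARP1, CNBP and EIF4EBP1 were lost without either 6 h array or without HGF 1 h replicate 1, those of LARP1 and EIF4EBP1 also without either untreated array, and that of LARP1 without HGF 1 h replicate 2.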

How the data were processed

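Gene expression was measured on 10 Affymetrix hgu133a arrays, 2 for each of 5 groups. The authors summarised and normalised the probe data with RMA, and the deposited values are log2 values, normalised between arrays. The presence calls that the authors used as a filter are not part of these values. In their place a probe set was kept when its second-highest value over the 10 arrays was at least 7.3, the 68 control probe sets apart. Symbols came from the platform annotation, in which 19065 probe sets had 1 symbol, 1043 several and 2107 none. limma 3.58.1 in R 4.3.3 was fitted with a mean per group over all arrays, 5 residual degrees of freedom and a prior of 5.94 degrees of freedom with an SD of 0.144. Benjamini-Hochberg adjustment was made over the kept probe sets within a comparison, and the 95% intervals come from the same moderated fit. The procedure was tested on simulated data with independent noise and with added differences larger than any found in the members. That test therefore does not show how well differences as small as theirs are found. An exact permutation test of 2 arrays against 2 cannot give a two-sided p below 0.333 and was not used. Precision is limited by the 2 arrays of each group. For the members it is limited also by the prior, whose SD of 0.144 exceeds their own median SD within groups of 0.080. With a trended and robust prior the SE of RPL7 200717_x_at for HGF 1 h against untreated cells was 0.073, against 0.114.

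Members eligible to be named were, per comparison, those called and the 3 largest differences each way, and also RPLP1, RPLP2, RPL11, RPS6 and the paralogs. From each other list at most 4 called members each way are eligible. RPS4Y1 is counted only. The members and all lists were chosen with earlier results of these data known, so no list is independent support. Start sites and promoter windows are those of RefSeq on GRCh38.p14 and are a description with no test. Alternatives left out the filter or made it stricter, rescaled the arrays (median centring or cyclic loess), used a replicate block, used a prior that was trended and robust, took the spread from the compared groups only, adjusted over all 7 comparisons, took 1 value per gene, and used members without the suffixes _s_at and _x_at. Each array was also left out in turn.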

Additional observations from a re-analysis of the deposited data

How the results depend on the processing

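With 2 arrays per group and a prior from all probe sets, the 95% interval reached past 1.5-fold for 2 to 7 members per comparison. Smaller changes could not be told from none at this precision. Of 266 counts of called members under 19 alternatives, 9 were above 0. The alternative with 1 value per gene was run for medians and named genes only. With a trended and robust prior the limma counts were 1 lower at HGF 1 h, 1 higher and 3 lower from 1 to 6 h, and 2 higher from 6 to 24 h. Without the filter they were 1 higher at 6 h and 2 higher from 1 to 6 h, and 1 lower from 6 to 24 h. These were RPS14 214245_at (0.61, 0.64 and -0.52, limma adjusted p of 0.0365, 0.0140 and 0.0359) and RPL37A 213459_at from 1 to 6 h (0.96, adjusted p = 0.00464). The remaining counts above 0 came from fits with an array left out. In such fits a group held 1 array and the calls over all tested probe sets varied widely, so their counts are not read as results about the members.

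The member median was -0.012 at 1 h, -0.013 from 1 to 6 h and 0.024 from 1 to 24 h under cyclic loess, and 0.093 at 1 h and -0.062 from 1 to 24 h in members without _s_at or _x_at. With an array left out it ran from 0.021 to 0.075 at 1 h, -0.054 to 0.0036 at 6 h, -0.0027 to 0.064 at 24 h, -0.041 to 0.021 in ITGB4 cells, -0.088 to -0.035 from 1 to 6 h, 0.014 to 0.105 from 6 to 24 h and -0.048 to 0.026 from 1 to 24 h. Of 42 named largest differences 1 changed sign in at least 1 alternative, and of 52 given by name 27 did, none of them called.

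Replicate numbers are shared by the groups. Deviations of same-numbered arrays correlated over 0.1 in 8 of 10 pairs of groups, but the correlation was -0.107 between ITGB4 and HGF 1 h and -0.140 between HGF 1 and 24 h. Since not every pair passed, the numbers were not taken as pairs, although each of the 10 arrays correlated best with an array of its own number. With the replicate number as a block 0 members were called in each of the 7 comparisons. The cause of these shifts was not tested.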

Other observations

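The RPL37A and RPS14 probe sets that passed only without the filter lie low on the scale. RPL37A 213459_at was at 6.20 and 6.26 in untreated cells, 5.73 and 5.85 at 1 h, 6.99 and 6.51 at 6 h, 6.23 and 6.18 at 24 h and 6.47 and 6.05 in ITGB4 cells. RPS14 214245_at was at 5.93 and 5.83 in untreated cells, 6.01 and 5.69 at 1 h, 6.61 and 6.36 at 6 h, 6.02 and 5.91 at 24 h and 5.93 and 5.91 in ITGB4 cells. In both, the 6 h arrays were the highest of the 10. The third probe set of RPL37A, 214041_x_at, also below the filter, was at 6.19 and 6.36 in untreated cells, 5.55 and 6.61 at 1 h and 6.35 and 6.64 at 6 h, so its mean was higher at 6 than at 1 h while its arrays overlapped. The bright probe set of that gene, 201429_s_at, was at 13.90 and 13.84 in untreated cells, 13.99 and 14.01 at 1 h and 13.85 and 13.86 at 6 h, lower at 6 than at 1 h. RPS14 208645_s_at was at 13.23 and 13.19 in untreated cells, 13.31 and 13.20 at 1 h and 13.28 and 13.20 at 6 h, and 217298_at at 5.17 and 5.32, 5.40 and 5.46, and 5.18 and 5.51, with overlap in both.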
